A study of Homo sapiens with 21 samples.

Results

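OCI-AML5 cells exposed to UM171 for 48 h were compared with OCI-AML5 cells in DMSO, the vehicle. OCI-AML5 is an established human acute myeloid leukemia cell line, and UM171 is a small molecule used to expand human hematopoietic stem cells in culture. The comparison was made between the 3 libraries labelled UM171 48 h and the 3 libraries labelled DMSO, which are 6 of the 21 libraries of the series. The treated group was exposed to 500 nM UM171 according to its labels, whereas the text of the study names a lower dose for the same time course. The DMSO libraries are labelled 72 h, so the groups also differ in their time in culture, and the effects of treatment and time cannot be told apart. The labels of both groups name no edit, and none of these 6 libraries is labelled as carrying a guide against EPCR. Whether the cells carried a control guide is not stated in the labels. The design text of the series speaks of sorted subsets, but no label of these libraries names a sort. No label says that libraries of a group came from separate cultures, so p-values measure only the spread between libraries within groups, which may be technical. This spread was estimated over the 15 libraries of the time course and not over these 6 alone.

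UM171 is known to bring about the loss of the CoREST complex through the ubiquitin ligase adaptor KBTBD4. CoREST holds the histone demethylase LSD1 and histone deacetylases, and it is recruited to enhancers and promoters by repressors such as GFI1 and REST. In myeloid cells GFI1 and LSD1 are known to hold down genes of mature monocytes and granulocytes, and the transcription factors SPI1 and C/EBP set the level of many of the same genes.

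RNA levels were read from poly(A) libraries with 27.3 to 46.3 M expected counts each at 48 h and 33.6 to 38.3 M in DMSO. They are given below as TPM, a share of all transcripts in the library that is scaled by transcript length, and differences are given as log2 fold changes from counts (edgeR). The leukemia line's own markers were found, with CD33 at 178 to 146 TPM and PTPRC, the common leukocyte antigen CD45, at 162 to 232 TPM (DMSO to 48 h). The 48 h mean of PTPRC was raised by replicate 3 (202, 175 and 320 TPM), and its log2 fold change from counts was 0.17. MPO, a granulocyte enzyme, was low at 2.69 to 3.58 TPM, and ANPEP was near 0. Of 12 markers of other cells, PECAM1 alone was abundant and it fell from 43.7 to 16.9 TPM, while the other 11 summed to 0.47 to 0.75 TPM in DMSO and 2.74 to 4.48 TPM at 48 h, and CD3E, MS4A1, HBB and KRT5 were at or near 0. Of these 11 the fibroblast collagens COL3A1 and COL1A1 were called higher, from 0.06 to 1.87 TPM and 0.06 to 0.603 TPM, while EPCAM, of epithelium, went from 0.0367 to 0.343 TPM (log2 fold change 3.62, adjusted p = 1.9e-04) and GNLY, of cytotoxic lymphocytes, from 0.15 to 0.517 TPM (log2 fold change 2.00, adjusted p = 0.031). What part the cells behind these markers had in any result was not tested.

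Replicate 3 at 48 h stood apart from the other libraries of its group. The chi-square of its counts per gene was 51.6 and 55.7 against replicates 1 and 2, which differed from each other by 7.52, and no other pair of same-group libraries in the time course exceeded 10.2. It held 13.5% mitochondrial counts, whereas replicates 1 and 2 held 8.75% and 7.96% and the DMSO libraries 7.77% to 9.39%. In TPM it was the lowest of the 3 libraries for 1284 of the 1945 genes that rose and for 496 of the 774 that fell. How often it was the lowest over all tested genes was not counted, so this is not shown to be a trait of the called genes. TPM is a share of each library, and mitochondrial mRNAs summed to 222370 TPM in replicate 3, against 149093 and 140242 in replicates 1 and 2. On 11083 genes with at least 100 counts in each 48 h library, its median absolute deviation from replicates 1 and 2 was 0.12 on the log2 scale. The same measure was 0.082 for each of those. It was off by over 2-fold for 17 genes, against 9 and 3 for replicates 1 and 2. On these genes, which had no minimum count in DMSO, the DMSO libraries were off for 31, 30 and 20. The part of this library in each result was examined by leaving it out.

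Of 16575 genes tested, 1945 rose (11.7%) and 774 fell (4.67%), with limits taken from the study: the adjusted p had to be under 0.0001 and the difference larger than 2-fold. A gene is said to rise or fall below when it passed both. Changes over 4-fold were found for 948 genes that rose and 157 that fell, and changes over 16-fold for 272 and 22. TPM of the 2 groups did not overlap for 2691 of these 2719 genes. The genes were called on the same libraries, and the overlap over all tested genes was not counted. Lack of overlap, here and for the genes named below, therefore describes the calls and adds no test. Without replicate 3 at 48 h, 2630 genes were called, and 2508 of the 2719 were called the same way. The median log2 fold change over all tested genes was -0.0049. At an adjusted p under 0.05 with no limit on the fold, 37.1% of genes were higher and 35% lower. List members near 0 in DMSO passed the filter on low counts through the treated libraries alone and had to differ, so the counts of called members below are accounts of the lists and not tests. All such counts are to be read beside the shares over all tested genes, 11.7% higher and 4.67% lower. The adjusted p-values of any gene near 0 in DMSO are likewise descriptions.

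**Figure D1:**
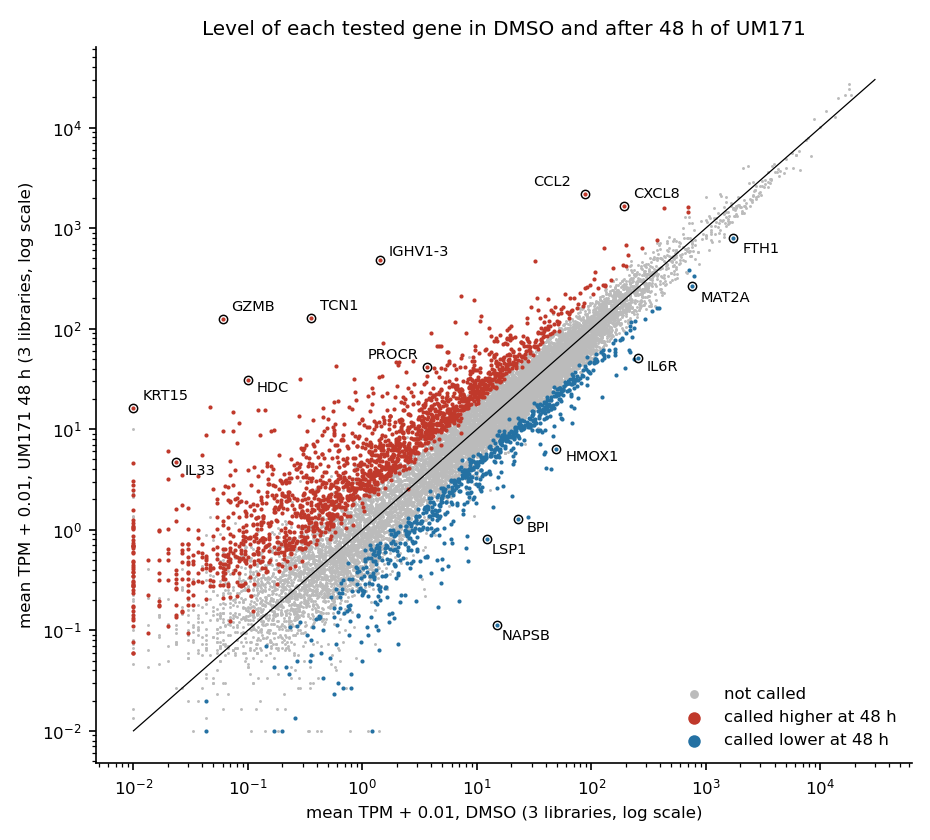
Mean TPM of each tested gene in the 3 DMSO libraries (x axis) and the 3 UM171 48 h libraries (y axis), with 0.01 added and both axes on a log scale; the line marks equal levels. The 1945 genes that rose are red and the 774 that fell are blue, and the genes that rose reach farther from the line (GZMB, KRT15) than those that fell (NAPSB).

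GZMB and KRT15, which had at most 2 counts in all in DMSO, were among the largest rises. GZMB, the granzyme B protease of cytotoxic lymphocytes and plasmacytoid dendritic cells, had 0.1, 0 and 0.05 TPM in DMSO and 141, 134 and 96.9 TPM at 48 h. All 3 treated libraries were far above all DMSO libraries, with replicate 3 the lowest of them. With 2 counts in DMSO in all against 7134 at 48 h, the ratio was 3576-fold (exact 95% interval 989.7 to 29538), and the interval covers counting error only (adjusted p = 2.7e-16). KRT15, a keratin of basal epithelium, was 0 in all 3 DMSO libraries and 17.6, 18.1 and 13.6 TPM at 48 h. Against 3 counts over the DMSO group, the smallest signal considered, this was at least 490.3-fold higher (adjusted p = 4.2e-13). GZMB and KRT15 passed the filter on low counts through treated libraries alone, so their adjusted p-values describe the rise and do not test it.

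TCN1, a vitamin B12 carrier of granulocyte granules, had 0.51, 0.22 and 0.3 TPM in DMSO and 140.0, 140.4 and 98.5 TPM at 48 h (log2 fold change 9.52, SE 0.25, adjusted p = 3.2e-15). The gap junction gene GJA1 had 0.09, 0.06 and 0.04 TPM in DMSO and 16.7, 17.6 and 10.3 TPM at 48 h (log2 fold change 7.91, SE 0.27, adjusted p = 8.8e-14). SPP1, which encodes the secreted matrix protein osteopontin, rose from 0.87, 0.35 and 0.53 TPM to 43.7, 38.7 and 45.1 TPM (log2 fold change 6.58, SE 0.12, adjusted p = 6.5e-17). None of these groups overlapped, and replicate 3 was the lowest treated library for TCN1 and GJA1 but the highest for SPP1. CD22, a lectin of B cells, rose from 0.117 to 8.75 TPM and the muscle actin-binding gene SYNPO2L from 0.0333 to 8.83 TPM. The serpins SERPINB3 and SERPINB4 rose from 0.07 to 7.21 TPM and 0.113 to 15.6 TPM, but they are near-identical neighbours between which the counting split reads, so their separate values are uncertain.

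GCSAML, a gene of megakaryocytes and blood progenitors, had 0.33, 0.26 and 0.24 TPM in DMSO and 35.9, 33.4 and 25.7 TPM at 48 h (log2 fold change 7.26, SE 0.19, adjusted p = 2.8e-15). The next 4 genes had at most 3 counts in each DMSO library, and 6 (AREG), 4 (KRT13), 5 (ADGRV1) and 5 (TRGV7) over the group. AREG, a ligand of the EGF receptor, reached 11.4, 13 and 9.98 TPM, 159.8-fold (exact 95% interval 73.1 to 436), and KRT13, a keratin of stratified epithelium, reached 10.2, 10.3 and 8.43 TPM, 241-fold (exact 95% interval 93.8 to 886). ADGRV1, a very large adhesion receptor, reached 11.7, 10.9 and 6.32 TPM, 193-fold (exact 95% interval 82.3 to 595). TRGV7, a T cell receptor gamma V segment, reached 13.2, 12.3 and 15.1 TPM, 50.7-fold (exact 95% interval 21.5 to 158), and such short segments give high TPM from few counts. For all 4 genes each treated library exceeded each DMSO library.

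The promoter of GZMB is shown because no other gene with so few DMSO counts reached such a level at 48 h, and like the other promoters below it was chosen after the values were seen. The window (RefSeq, GRCh38.p14, chr14:24634141-24634440, minus strand, from 250 bases before the transcript start to 50 after it) is given 5′ to 3′ with capitals for an AP-1 motif, TGANTCA, that begins 214 bases before the start.

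GZMB: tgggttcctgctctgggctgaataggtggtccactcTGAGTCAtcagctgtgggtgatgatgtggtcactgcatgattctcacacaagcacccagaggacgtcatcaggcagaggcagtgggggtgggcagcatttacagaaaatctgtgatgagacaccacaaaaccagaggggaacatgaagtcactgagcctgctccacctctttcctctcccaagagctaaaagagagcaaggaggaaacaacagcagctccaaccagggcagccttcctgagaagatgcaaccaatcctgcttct

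**Figure D2:**
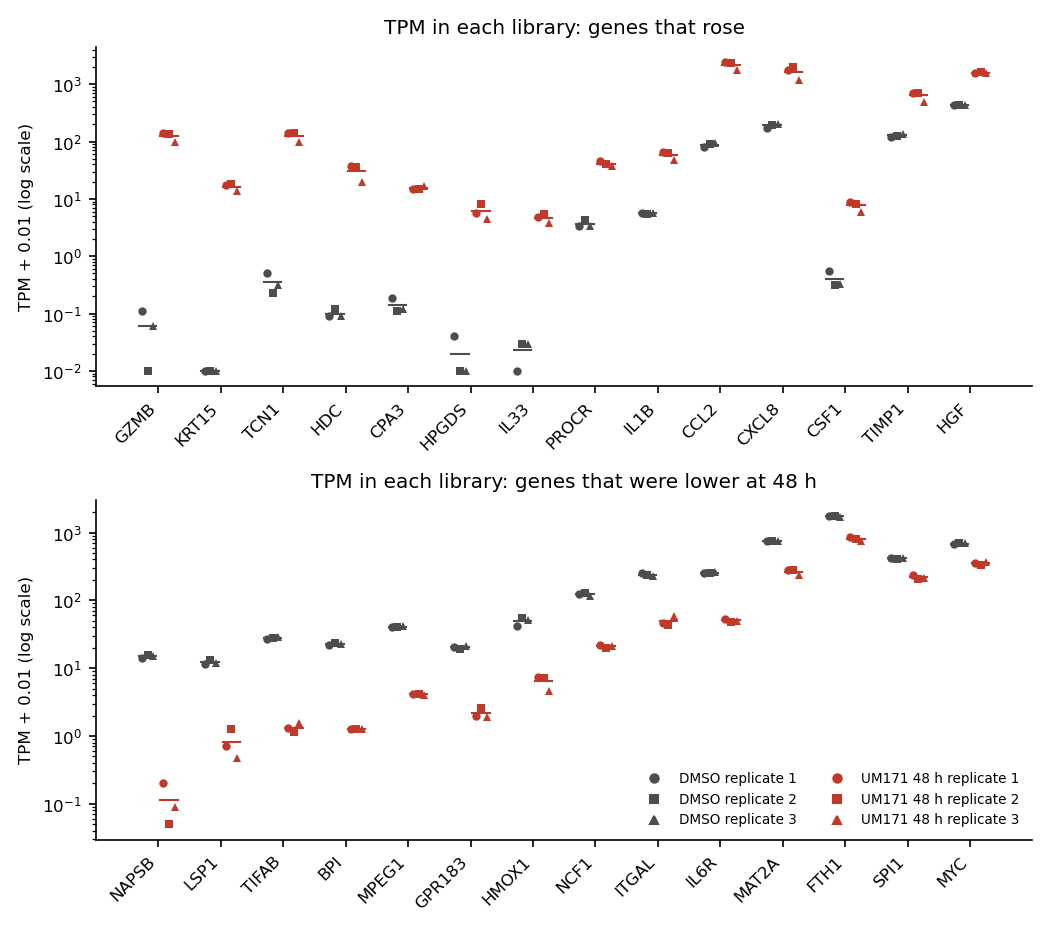
TPM plus 0.01 (log scale) in each DMSO and UM171 48 h library for 14 genes that rose (top) and 14 that were lower at 48 h (bottom); points are libraries, with a shape for each replicate, and bars are means of 3. The groups do not overlap for any gene shown, and SPI1 and MYC, in the bottom panel, fell short of the 2-fold limit.

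Genes of mast cells, basophils and eosinophils, which store histamine, tryptases and lipid mediators, were prominent among the large rises. Of 19 listed genes 11 passed the filter on low counts and 10 of these rose. HDC, CPA3, HPGDS, ENPP3, IL1RL1 and FCER1A were below 0.2 TPM in DMSO and passed through the treated libraries alone, so this count is an account of the members and not a test. HDC, the enzyme that makes histamine, had 0.08, 0.11 and 0.08 TPM in DMSO and 37.5, 36.1 and 19.6 TPM at 48 h (log2 fold change 8.63, SE 0.26, adjusted p = 1.9e-14). CPA3, the carboxypeptidase of mast cell granules, had 0.18, 0.1 and 0.11 TPM in DMSO and 15, 14.9 and 17 TPM at 48 h (log2 fold change 6.97, SE 0.23, adjusted p = 6.9e-14). HPGDS, which makes prostaglandin D2, had 0.03, 0 and 0 TPM in DMSO and 5.75, 8.2 and 4.41 TPM at 48 h, and its ratio was 481-fold (exact 95% interval 86 to 19048). For each of the 3 genes every treated library was far above every DMSO library.

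GATA2, a transcription factor of mast cells and progenitors that was already present in DMSO, had 34, 33.5 and 33.8 TPM in DMSO and 215, 219 and 172 TPM at 48 h (log2 fold change 2.58, SE 0.10, adjusted p = 3.8e-13). ENPP3, the basophil surface marker CD203c, rose from 0.16 to 9.81 TPM, IL1RL1, the receptor of IL-33, from 0.0167 to 3.49 TPM, and PRG2, the eosinophil major basic protein, from 11.7 to 61.7 TPM. The tryptase genes TPSAB1 and TPSB2 rose from 10.3 to 56.9 TPM and 1.18 to 5.02 TPM, and reads that they share could not be told apart. FCER1A, the alpha chain of the IgE receptor, rose from 0.07 to 2.04 TPM. SIGLEC6, the remaining tested member, went from 3.84 to 4.74 TPM (log2 fold change 0.25, adjusted p = 0.021). The other 8 members, among them the mast cell markers KIT, MS4A2 and CMA1 and the eosinophil genes CLC, EPX and CCR3, were too low to be tested, and the highest of them, SIGLEC8, had a mean of 0.177 TPM at 48 h. The summed level of the 19 genes was 59.8 to 62.9 TPM in DMSO and 341 to 432 TPM at 48 h. In these bulk samples a change in the share of cells that express a gene and a change in its level per cell cannot be told apart.

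The promoters of CPA3 and HPGDS are shown because both genes rose from near 0 and both windows hold the GATA motif AGATAA, in capitals on the strand of the gene or as its reverse complement, TTATCT. The CPA3 window (chr3:148865046-148865345, plus strand) holds it 173 and 45 bases before the start. The HPGDS window (chr4:94342787-94343086, minus strand) holds it 111 bases before the start. Whether GATA2 binds there was not measured.

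CPA3: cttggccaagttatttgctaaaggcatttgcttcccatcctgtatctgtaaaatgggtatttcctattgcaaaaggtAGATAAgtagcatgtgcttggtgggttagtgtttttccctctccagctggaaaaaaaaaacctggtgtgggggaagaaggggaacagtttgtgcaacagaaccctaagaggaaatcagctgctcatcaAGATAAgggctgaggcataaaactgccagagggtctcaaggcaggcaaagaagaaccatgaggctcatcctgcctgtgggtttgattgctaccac

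HPGDS: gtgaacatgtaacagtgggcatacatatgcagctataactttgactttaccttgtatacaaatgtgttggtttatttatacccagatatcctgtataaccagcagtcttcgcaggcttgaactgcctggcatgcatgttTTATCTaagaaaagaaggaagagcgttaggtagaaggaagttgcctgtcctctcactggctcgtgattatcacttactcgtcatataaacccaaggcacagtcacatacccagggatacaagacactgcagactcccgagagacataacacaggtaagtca

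CCL2, CXCL8 and HGF were among the largest rises in TPM. CCL2, the chemokine that draws monocytes, had 80.7, 89.3 and 95.3 TPM in DMSO and 2398, 2299 and 1790.5 TPM at 48 h (log2 fold change 4.62, SE 0.14, adjusted p = 1.7e-14). CXCL8, which draws neutrophils, had 176, 197 and 201 TPM in DMSO and 1783, 2012 and 1194 TPM at 48 h (log2 fold change 3.28, SE 0.11, adjusted p = 8.4e-14). HGF, hepatocyte growth factor, had 427, 426 and 441 TPM in DMSO and 1596, 1631 and 1572 TPM at 48 h (log2 fold change 1.82, SE 0.048, adjusted p = 3.7e-15). All 3 treated libraries exceeded all DMSO libraries for each gene, and replicate 3 was the lowest treated library for each of them.

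TMSB10 and HNRNPA2B1 also had large rises in TPM. TMSB10, which binds actin monomers, had 689, 711 and 713 TPM in DMSO and 1594, 1529 and 1243 TPM at 48 h (log2 fold change 1.07, SE 0.051, adjusted p = 5.4e-12). HNRNPA2B1, an RNA-binding protein, had 668, 739 and 703 TPM in DMSO and 1578, 1751 and 1573 TPM at 48 h (log2 fold change 1.08, SE 0.06, adjusted p = 4.1e-11).

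Of 23 listed chemokines and receptors 16 were tested, of which 6 rose and 1 fell (beside 11.7% and 4.67% of all genes). CCL3 rose from 2.1 to 46.7 TPM, CCL5 from 80.2 to 228 TPM, CXCL3 from 0.567 to 6.98 TPM and CXCL2 from 10.9 to 25.8 TPM, while CCL20 rose from 3 counts in DMSO to 183 at 48 h, 61.2-fold (exact 95% interval 20.6 to 299). CCL3 shares reads with near-identical gene copies, so its value is uncertain. CCR2, the receptor of CCL2, fell from 44.1 to 16 TPM (log2 fold change -1.41, adjusted p = 2.2e-12). CXCR4, the receptor that keeps progenitors in the marrow, was at 28.8, 24.8 and 27 TPM in DMSO and 14.1, 14.4 and 13 TPM at 48 h, below the DMSO libraries without reaching 2-fold (log2 fold change -0.94, SE 0.075, adjusted p = 5.1e-09). CCL17, CCL22 and CXCL10, other chemokines of monocytes and dendritic cells, were too low to be tested.

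Among the interleukins and colony stimulating factors, 9 of 16 were tested and 4 rose (beside 11.7% of all genes). CSF1, the growth factor of macrophages, had 0.55, 0.3 and 0.32 TPM in DMSO and 8.92, 8.24 and 5.82 TPM at 48 h (log2 fold change 4.69, SE 0.17, adjusted p = 1.2e-13), with all treated libraries above all DMSO libraries. IL6 went from 2 counts in DMSO to 142 at 48 h, 71.2-fold (exact 95% interval 19.3 to 594), and IL23A rose from 1.35 to 3.56 TPM. The call of IL23A was lost when only the compared groups were fitted (adjusted p = 2.5e-04, edgeR) and with limma on log2(TPM + 1) (log2 difference 0.96). TNF, IL10, IL12B and CSF2 were not detectable above the filter at this depth. The receptor side changed in the other direction for IL6R, the IL-6 receptor, which had 254, 253 and 259 TPM in DMSO and 53.8, 48.4 and 50.3 TPM at 48 h (log2 fold change -2.41, SE 0.041, adjusted p = 3.2e-17). JAK2, the kinase of cytokine receptors, fell from 19.3 to 7.41 TPM, and PIM1, a kinase induced by cytokines, rose from 149 to 307 TPM.

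The IL-1 family list had 12 of 16 members tested, of which 5 rose (beside 11.7% of all genes) and none fell. IL33, IL18 and IL1R2, 3 of these 5, passed the filter through the treated libraries alone. IL1B, the main secreted IL-1, had 5.62, 5.39 and 5.77 TPM in DMSO and 65, 63.4 and 47.2 TPM at 48 h (log2 fold change 3.46, SE 0.086, adjusted p = 1.7e-15). Beside it IL33 rose, and so did IL18, from 0.107 to 1.29 TPM, IL18R1, a chain of its receptor, from 1.12 to 10.4 TPM, and IL1R2, the decoy receptor of IL-1, which was 0 in every DMSO library and had 0.66, 0.79 and 0.57 TPM at 48 h, at least 17.4-fold higher. NLRP3 and the adaptor PYCARD, parts of the inflammasome, stayed within 2-fold of DMSO with log2 fold changes of -0.28 and 0.31 (adjusted p = 2.4e-05 and 0.0086). CASP1, the protease that cleaves pro-IL-1β, went from 30.2 to 58.4 TPM (log2 fold change 0.84, adjusted p = 9.4e-11).

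Of 18 ligands and receptors of the TNF superfamily 15 were tested, 4 rose (beside 11.7% of all genes) and none fell. TNFSF13B, the B cell factor BAFF, had 9.69, 8.62 and 9.18 TPM in DMSO and 53.5, 53.3 and 48.4 TPM at 48 h (log2 fold change 2.58, SE 0.072, adjusted p = 6.8e-15), and TNFSF9, the ligand of 4-1BB, had 5.8, 6.47 and 6.56 TPM in DMSO and 16.2, 15.1 and 10.1 TPM at 48 h (log2 fold change 1.16, SE 0.10, adjusted p = 1.3e-08). CD40, which receives signals from T cells, rose from 0.197 to 2.14 TPM. TNFSF10, the death ligand TRAIL, went from 58.6 to 102 TPM (log2 fold change 0.83, adjusted p = 3.9e-10).

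Among NF-kB subunits and inhibitors, 19 of 20 were tested and 4 rose: NFKB2, RELB, BCL3 and BIRC3, genes of the noncanonical arm and of NF-kB feedback. RELB had 1.17, 1.59 and 1.55 TPM in DMSO and 3.83, 4.4 and 3.41 TPM at 48 h (log2 fold change 1.54, SE 0.13, adjusted p = 1.1e-08) and BCL3 rose from 5.27 to 12.8 TPM. The canonical subunits NFKB1 and RELA were lower at 48 h, with log2 fold changes of -0.54 (adjusted p = 1.2e-09) and -0.40 (adjusted p = 8.8e-05). At an adjusted p under 0.05, 8 of the 19 were higher and 8 lower, where 37.1% and 35% of all genes were, and the median was -0.077, beside -0.0049 over all genes.

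The promoter of CXCL8 is shown as that of the best known NF-kB and AP-1 target among the large rises. Its window (chr4:73740319-73740618, plus strand) has capitals for the AP-1 motif 137 bases before the start and for the NF-kB core GGANTTNCC 91 bases before it.

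CXCL8: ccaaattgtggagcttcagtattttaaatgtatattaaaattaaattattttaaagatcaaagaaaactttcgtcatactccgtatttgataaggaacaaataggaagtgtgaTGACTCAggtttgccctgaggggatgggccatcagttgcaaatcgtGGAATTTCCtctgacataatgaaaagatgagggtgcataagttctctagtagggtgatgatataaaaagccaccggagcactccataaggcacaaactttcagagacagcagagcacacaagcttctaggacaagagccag

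Immediate early and ERK feedback genes, which report signalling through the MAP kinase ERK, rose in part. EGR1 had 1.82, 1.96 and 2.03 TPM in DMSO and 48.1, 43.2 and 47.1 TPM at 48 h (log2 fold change 4.61, SE 0.15, adjusted p = 4.6e-14), EGR3 rose from 0.03 to 5.52 TPM and the survival gene IER3 from 2.78 to 47.9 TPM. SPRY4 and ETV5, which ERK is known to induce, rose from 0.0133 to 1.6 TPM and 2.01 to 26.7 TPM. The classical AP-1 genes did not rise: FOS went from 32 to 18.1 TPM (log2 fold change -0.86, adjusted p = 2.9e-09), JUN from 28.1 to 30.4 TPM (log2 fold change 0.14, adjusted p = 0.017) and FOSL1 from 28.3 to 16.4 TPM (log2 fold change -0.80, adjusted p = 2.9e-06). In all, 7 of 20 immediate early genes and 6 of 15 tested ERK feedback genes rose, and DUSP2 fell.

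Of 15 tested genes of prostaglandins and leukotrienes, lipid signals made from arachidonic acid, 6 rose and 1 fell. PTGS2, the inducible cyclooxygenase, had 0.96, 1.58 and 1.14 TPM in DMSO and 26.4, 24.5 and 18.1 TPM at 48 h (log2 fold change 4.34, SE 0.17, adjusted p = 4.0e-13). HPGD, which degrades prostaglandins, rose from 0.0267 to 3.41 TPM and ALOX5AP, which activates leukotriene synthesis, from 1.74 to 13.6 TPM. PTGER2, a receptor of prostaglandin E2, had 34, 34.9 and 37.7 TPM in DMSO and 7.31, 8.25 and 5.88 TPM at 48 h (log2 fold change -2.33, SE 0.067, adjusted p = 1.0e-14), with no overlap between the groups.

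Of 13 costimulatory and checkpoint genes, all tested, 8 rose (beside 11.7% of all genes) and none fell. CD80, CD274 and PDCD1LG2, 3 of these 8, passed the filter through the treated libraries alone, so this count is an account of the members. CD276 had 17.1, 16.1 and 19.1 TPM in DMSO and 79.6, 72.1 and 63.7 TPM at 48 h (log2 fold change 2.01, SE 0.075, adjusted p = 2.4e-13), CD48 rose from 114 to 251 TPM, the adhesion molecule ICAM1 from 7.39 to 20.2 TPM and CD274, the checkpoint ligand PD-L1, from 0.0933 to 0.33 TPM. CD274 was over the p limit without DMSO replicate 1 or 3 (log2 fold change 2.89, adjusted p = 1.4e-04, and log2 fold change 3.10, adjusted p = 1.5e-04), and when only the compared groups were fitted (adjusted p = 1.1e-04). The second PD-1 ligand, PDCD1LG2, was 0 in all DMSO libraries and 0.25, 0.39 and 0.19 TPM at 48 h, and it was over the p limit when only the compared groups were fitted (adjusted p = 2.0e-04). VSIR went the other way, from 96.7 to 51.2 TPM (log2 fold change -0.80, adjusted p = 5.0e-07).

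Of 12 genes of the MHC class II pathway 10 were tested, of which 1 rose and 2 fell, with a median of 0.18. CTSS, the protease cathepsin S that acts on the invariant chain, rose from 50.9 to 112 TPM (log2 fold change 1.24, adjusted p = 1.2e-11). CIITA, the master regulator of class II, had 18.8, 20.4 and 24.1 TPM in DMSO and 7.12, 8.55 and 8.03 TPM at 48 h (log2 fold change -1.51, SE 0.058, adjusted p = 3.6e-13), and HLA-DRA had 236, 235 and 239.7 TPM in DMSO and 105, 104 and 95.6 TPM at 48 h (log2 fold change -1.20, SE 0.046, adjusted p = 3.7e-13). Every treated library lay below every DMSO library for both. HLA-DRB1, HLA-DPA1 and HLA-DMA were slightly higher, with log2 fold changes of 0.55, 0.50 and 0.39 (adjusted p = 3.3e-05, 1.8e-08 and 1.8e-04). Reads of HLA genes are shared between loci, so these values are uncertain. Of 16 class I genes, ERAP2, a peptide-trimming protease, was the member that rose (2.3 to 8.24 TPM), and B2M, the class I light chain, went from 2109.6 to 4001 TPM (log2 fold change 0.88, adjusted p = 8.4e-12). At an adjusted p under 0.05 (edgeR), 12 of the 16 were higher and 1 lower, beside 37.1% and 35% of all genes, with a median of 0.25.

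Receptors of monocytes rose for 7 of 20 tested members of 25 (beside 11.7% of all genes) and none fell. LY96, the partner of TLR4, had 1.15, 0.68 and 0.69 TPM in DMSO and 36.3, 34.1 and 23.8 TPM at 48 h (log2 fold change 5.30, SE 0.18, adjusted p = 1.0e-13). CD36, a scavenger receptor, rose from 4.23 to 40.4 TPM, CLEC7A, the receptor of fungal glucans, from 6.57 to 39.6 TPM, and ITGAM, the integrin CD11b, from 13.2 to 48.8 TPM. CD14, MRC1 and CD163, markers of mature monocytes and macrophages, were too low to be tested. Among adhesion genes ITGAL, the LFA-1 alpha chain, fell, with 251, 234 and 229 TPM in DMSO and 45.9, 43.7 and 59.4 TPM at 48 h (log2 fold change -2.45, SE 0.039, adjusted p = 2.0e-17), while ITGA2, an integrin that binds collagen, rose from 0.55 to 9.72 TPM.

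The phagocyte NADPH oxidase, which makes superoxide, had subunits that moved in different directions. NCF1, or p47phox, a cytosolic subunit, had 125, 127 and 117 TPM in DMSO and 21.9, 20.1 and 20.9 TPM at 48 h (log2 fold change -2.52, SE 0.067, adjusted p = 4.0e-15), and pseudogenes of NCF1 share some of its reads. The membrane subunit CYBB rose from 13 to 25.4 TPM and its partner CYBA went from 305 to 257 TPM (log2 fold change -0.32, adjusted p = 0.0018). CYBB was short of 2-fold without DMSO replicate 2 (log2 fold change 0.97, adjusted p = 2.6e-08) or 48 h replicate 3 (log2 fold change 0.91, adjusted p = 1.3e-10).

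Of 17 tested C-type lectins, LILR and SIGLEC receptors 4 rose and 1, LILRB4, fell. CLEC2B, a ligand of NK cells, had 15.8, 19.9 and 19.1 TPM in DMSO and 63.9, 79.4 and 93.7 TPM at 48 h (log2 fold change 2.09, SE 0.099, adjusted p = 4.9e-12), and SIGLEC10 rose from 2.5 to 6.81 TPM.

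Interferon-stimulated genes were mixed, with 7 of 24 tested rising and 2 falling (beside 11.7% and 4.67% of all genes). BST2, or tetherin, rose from 47.6 to 162 TPM and IFI6 from 4.93 to 20.8 TPM, IRF7 fell from 9.84 to 4.45 TPM and CMPK2 from 14 to 4.79 TPM, and ISG15, IFIT2 and IFIT3 did not pass both limits (log2 fold changes 0.15, -0.17 and 0.14, adjusted p = 0.41, 0.16 and 0.062).

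**Figure D3:**
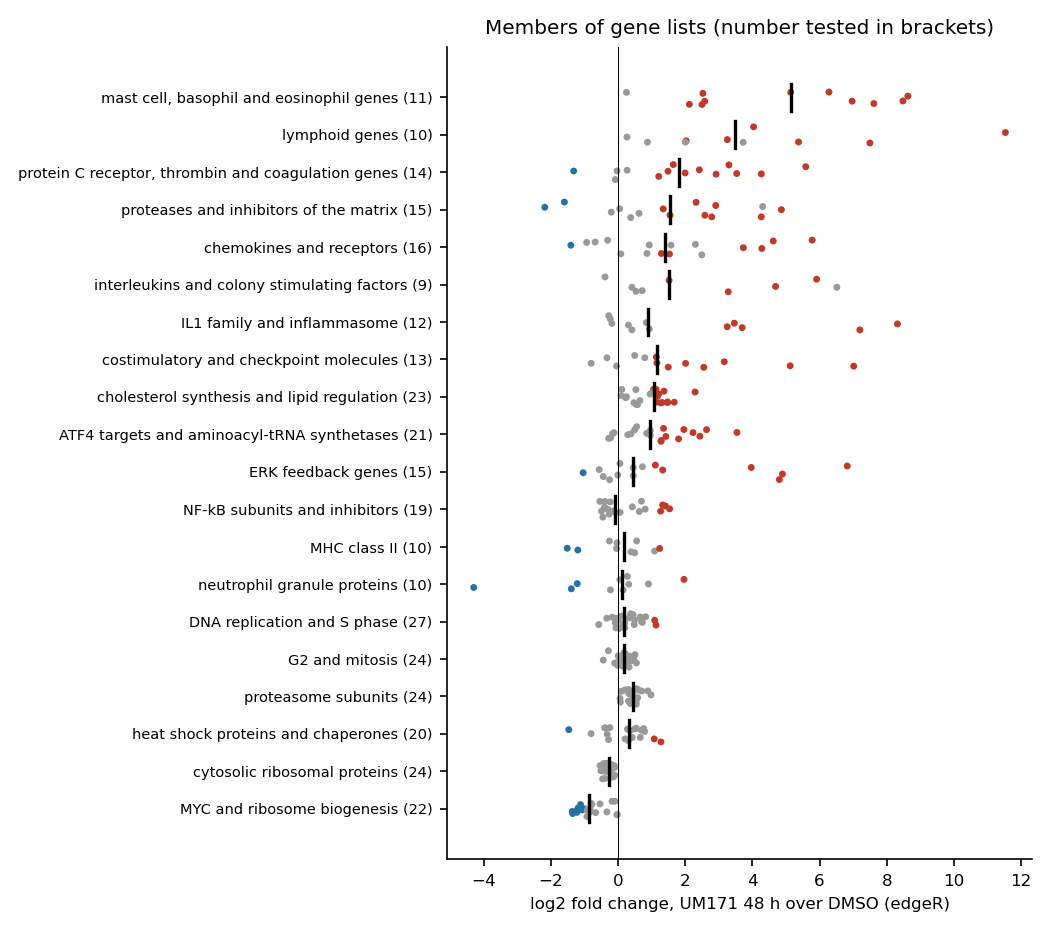
Log2 fold change of UM171 48 h over DMSO (edgeR, x axis) for the tested members of 20 gene lists; each point is a gene, red where it rose and blue where it fell past both limits, and black bars are medians of the tested members; members under the filter on low counts are not shown. The mast cell list has the median farthest to the right (5.14), the farthest single gene is in the lymphoid list (11.5), and ribosome biogenesis genes lie to the left. Several members of the mast cell and lymphoid lists passed the filter through the treated libraries alone. Their positions were thus partly fixed by the filter, and the order of the medians is no test.

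PROCR encodes EPCR, the protein C receptor that also marks cultured human hematopoietic stem cells and that the study set out from. It had 3.37, 4.3 and 3.38 TPM in DMSO and 45.3, 41.1 and 36.9 TPM at 48 h (log2 fold change 3.53, SE 0.087, adjusted p = 1.6e-15), with every treated library above every DMSO library. Of 17 listed genes of the protein C, thrombin and coagulation system 14 were tested, of which 10 rose and 1 fell (beside 11.7% and 4.67% of all genes). F5, coagulation factor V, had 0.78, 0.61 and 0.4 TPM in DMSO and 20.6, 19.9 and 16.1 TPM at 48 h (log2 fold change 5.59, SE 0.097, adjusted p = 3.8e-17). PROS1, protein S, which is the cofactor of activated protein C, had 13.2, 14.8 and 14.2 TPM in DMSO and 78.8, 87.8 and 61.6 TPM at 48 h (log2 fold change 2.42, SE 0.06, adjusted p = 1.8e-15), and TFPI, the tissue factor inhibitor, rose from 2.66 to 23.3 TPM. THBD, thrombomodulin, which activates protein C with thrombin, was the member that fell, with 7.9, 8.72 and 8.36 TPM in DMSO and 3.61, 3.45 and 2.73 TPM at 48 h (log2 fold change -1.32, SE 0.062, adjusted p = 4.9e-12). SERPINB2, an inhibitor of plasminogen activators, rose from 6.44 to 117 TPM.

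The promoter of PROCR is shown because it is the gene the study is about. The window (chr20:35171822-35172121, plus strand) is in lower case throughout since none of the AP-1, GATA or NF-kB letters searched occurs in it.

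PROCR: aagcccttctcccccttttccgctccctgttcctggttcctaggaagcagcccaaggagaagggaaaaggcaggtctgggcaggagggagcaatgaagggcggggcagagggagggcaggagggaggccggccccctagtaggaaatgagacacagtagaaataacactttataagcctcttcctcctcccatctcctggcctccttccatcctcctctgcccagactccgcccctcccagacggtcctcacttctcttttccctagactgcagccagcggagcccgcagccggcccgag

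Other proteases and inhibitors that act outside the cell rose with them, 8 of 15 tested members of 22 (beside 11.7% of all genes). TIMP1, an inhibitor of metalloproteases, had 119.8, 126 and 138 TPM in DMSO and 715, 694 and 498 TPM at 48 h (log2 fold change 2.32, SE 0.058, adjusted p = 1.7e-15). A2M, a broad protease trap, rose from 2.02 to 43.2 TPM, SERPINA1, the elastase inhibitor, from 4.67 to 33.4 TPM and MMP19 from 1.14 to 7.49 TPM. ADAM8 and MMP25, proteases of neutrophils, fell from 4.11 to 0.947 TPM and 22.5 to 7.31 TPM.

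Lymphoid genes other than GZMB also appeared. CD3D, a chain of the T cell receptor complex, had 0.11, 0.8 and 0.43 TPM in DMSO and 16.2, 18.8 and 13.3 TPM at 48 h (log2 fold change 5.37, SE 0.28, adjusted p = 1.6e-11), and IL7R, the IL-7 receptor, rose from 3.65 to 33.4 TPM. CD79A, a B cell receptor chain, had 9.47, 9.33 and 10.2 TPM in DMSO and 39.5, 35.8 and 40.4 TPM at 48 h (log2 fold change 2.03, SE 0.10, adjusted p = 1.1e-11). PAX5, the B cell master regulator, was 0 in DMSO and 0.12, 0.08 and 0.15 TPM at 48 h, at least 21.7-fold higher, at a low level. Of 20 listed genes 10 were tested and 6 rose, several of them through the treated libraries alone, and CD3E, MS4A1, CD4 and LCK, which define T or B cells, were not above the filter. IGHV1-3, an immunoglobulin heavy chain V segment, had 0.99, 2.48 and 0.77 TPM in DMSO and 446, 479 and 504 TPM at 48 h (log2 fold change 8.45, SE 0.22, adjusted p = 2.4e-15). V segments are alike in sequence, so the segment that gave these reads is uncertain.

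Stem and progenitor genes did not move together, with 4 of 13 tested rising and 2 falling. HOXA9 rose from 16.6 to 41.6 TPM, MLLT3 from 9.11 to 23 TPM and ERG from 5.46 to 12.9 TPM, all regulators of hematopoietic progenitors. CD34 had 4.65, 4.34 and 5.15 TPM in DMSO and 1.63, 1.73 and 1.81 TPM at 48 h (log2 fold change -1.43, SE 0.10, adjusted p = 8.3e-10) and FLT3, a cytokine receptor of progenitors, had 4.06, 4.09 and 4.04 TPM in DMSO and 1.51, 1.66 and 1.45 TPM at 48 h (log2 fold change -1.35, SE 0.08, adjusted p = 1.0e-10). For both the treated libraries were all below the DMSO libraries. THY1, PROM1, MECOM and HLF were too low to be tested.

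Among the genes that fell, NAPSB, a transcribed relative of the protease napsin A, had 14.1, 15.7 and 14.8 TPM in DMSO and 0.19, 0.04 and 0.08 TPM at 48 h (log2 fold change -7.06, SE 0.19, adjusted p = 5.2e-15), the largest fall among genes with an average log2 CPM above 2. LSP1, a leukocyte actin-binding protein, had 11.5, 13.3 and 11.9 TPM in DMSO and 0.7, 1.25 and 0.46 TPM at 48 h (log2 fold change -4.62, SE 0.17, adjusted p = 2.1e-13). TIFAB, an inhibitor of TRAF6 signalling, had 26.6, 27.9 and 29.2 TPM in DMSO and 1.31, 1.12 and 1.53 TPM at 48 h (log2 fold change -4.37, SE 0.10, adjusted p = 8.5e-16), and DCANP1, its neighbour on chromosome 5, fell from 4.83 to 0.283 TPM. Treated and untreated libraries did not overlap for any of the 4.

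BPI, a bactericidal protein of neutrophil granules, had 22.1, 23.2 and 22.9 TPM in DMSO and 1.25, 1.27 and 1.27 TPM at 48 h (log2 fold change -4.30, SE 0.082, adjusted p = 8.4e-17). MPEG1, a pore-forming protein of phagocytes, had 39.8, 40.1 and 41.6 TPM in DMSO and 4.15, 4.15 and 3.95 TPM at 48 h (log2 fold change -3.28, SE 0.05, adjusted p = 1.8e-17), and GPR183, an oxysterol receptor that guides migration, fell from 20.3 to 2.14 TPM. Other granule genes went different ways: RNASE3 fell from 11.8 to 5.01 TPM, LYZ, lysozyme, was higher, from 717 to 1282 TPM (log2 fold change 0.90, adjusted p = 2.3e-10), and RNASE2 was at 229.9 to 231 TPM (adjusted p = 0.76), or lower without 48 h replicate 3 (log2 fold change -0.25, adjusted p = 0.017). ELANE, PRTN3, LTF, the DEFA genes and MMP8 were too low to be tested. LILRB4, an inhibitory receptor of monocytes, fell from 217 to 58.3 TPM.

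RGL4, a guanine exchange factor of myeloid cells, had 40.1, 51.4 and 42.1 TPM in DMSO and 3.93, 4.12 and 3.9 TPM at 48 h (log2 fold change -3.40, SE 0.12, adjusted p = 1.8e-13), and MUC19, a mucin, fell from 38.4 to 5.6 TPM. AGRN, the matrix protein agrin, had 14.5, 12.8 and 13.9 TPM in DMSO and 1.82, 1.99 and 1.2 TPM at 48 h (log2 fold change -2.82, SE 0.066, adjusted p = 8.5e-16). CILP2, BSN, MYBPH and NEK8 fell as well, from 3.69 to 0.543 TPM, 0.77 to 0.113 TPM, 17.1 to 2.7 TPM and 7.58 to 1.58 TPM. Among the largest falls in TPM, ZYX, the focal adhesion gene zyxin, had 704, 713 and 703 TPM in DMSO and 353, 321 and 469 TPM at 48 h (log2 fold change -1.03, SE 0.072, adjusted p = 9.9e-10), and MYH9, nonmuscle myosin, had 359, 388 and 374 TPM in DMSO and 158, 177 and 141 TPM at 48 h (log2 fold change -1.12, SE 0.045, adjusted p = 6.8e-13). ZYX was short of 2-fold without 48 h replicate 2 (log2 fold change -0.95, adjusted p = 4.5e-09). FAM107B fell from 389 to 159 TPM and TOP1MT, the mitochondrial topoisomerase, from 339 to 149 TPM. The groups did not overlap for any of these 11 genes.

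HMOX1, which degrades heme, had 41.9, 54 and 51.8 TPM in DMSO and 7.27, 7.18 and 4.62 TPM at 48 h (log2 fold change -2.92, SE 0.099, adjusted p = 8.1e-14), a 7.57-fold fall. FTH1, the ferritin heavy chain that stores iron, had 1741, 1769 and 1714 TPM in DMSO and 845, 810.2 and 746 TPM at 48 h (log2 fold change -1.09, SE 0.042, adjusted p = 4.1e-13), one of the largest falls in absolute level. FTL, the light chain, went from 4209.7 to 3649.9 TPM (log2 fold change -0.18, adjusted p = 0.0047), and SLC11A1, an iron transporter of phagosomes, rose from 0.16 to 1.61 TPM.

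Most myeloid transcription factors stayed within 2-fold, with 3 of 14 tested rising and none falling. SPI1 had 426, 403 and 421 TPM in DMSO and 235, 206 and 209.9 TPM at 48 h, a difference just under the 2-fold limit (log2 fold change -0.88, SE 0.074, adjusted p = 9.6e-09). CEBPA, CEBPE and IRF8 were also lower, with log2 fold changes of -0.40, -0.65 and -0.89 (adjusted p = 0.0016, 1.3e-07 and 2.8e-12), whereas CEBPB rose from 16.3 to 33.6 TPM, just past 2-fold and short of it without DMSO replicate 3 (log2 fold change 0.98, adjusted p = 2.5e-06) or 48 h replicate 1 (log2 fold change 0.97, adjusted p = 1.6e-06). GFI1 was at 147, 164 and 157 TPM in DMSO and 155, 152 and 113 TPM at 48 h (log2 fold change -0.16, SE 0.043, adjusted p = 0.0035).

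RNAs of the CoREST complex itself were close to their DMSO levels. KDM1A, which encodes LSD1, had 72.8, 75 and 71.7 TPM in DMSO and 88.4, 91.8 and 78.2 TPM at 48 h (log2 fold change 0.28, SE 0.033, adjusted p = 6.7e-07). RCOR1, which encodes CoREST1, had 48.8, 45.6 and 44 TPM in DMSO and 37.9, 42.4 and 35.8 TPM at 48 h (log2 fold change -0.21, SE 0.032, adjusted p = 1.4e-05). Of 15 tested genes of the complex and its partners, PHF21A rose (10.2 to 33.1 TPM, log2 fold change 1.92, adjusted p = 4.7e-11) and none fell. KBTBD4 was lower, with 16.8, 15.5 and 14.8 TPM in DMSO and 10.3, 12.5 and 7.62 TPM at 48 h (log2 fold change -0.66, SE 0.054, adjusted p = 7.9e-09). Protein levels were not measured. Of 22 neuronal genes known to be bound by REST, 7 passed the filter and 4 rose: SCN3A, a sodium channel, from 0 in every DMSO library to 1.69, 1.45 and 1.52 TPM, at least 209-fold higher, CHGB from 0.0533 to 0.63 TPM, SYN1 from 0.0567 to 0.53 TPM and SYP from 0.547 to 2.76 TPM. SYN1 was over the p limit when only the compared groups were fitted (adjusted p = 2.2e-04) and without any 1 of the DMSO libraries, with adjusted p from 1.2e-04 to 2.9e-04. SCN3A, CHGB and SYN1 passed the filter on low counts through the treated libraries alone. REST was at 18.3 to 18.9 TPM (adjusted p = 0.85).

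Genes of cholesterol synthesis and uptake, which SREBP2 controls from the endoplasmic reticulum, were mostly higher. Of 24 genes 23 were tested, 12 rose (beside 11.7% of all genes) and none fell, 21 were higher at an adjusted p under 0.05 (beside 37.1% of all genes), and the median was 1.06. INSIG1, the sterol sensor partner, had 69, 71.7 and 70.9 TPM in DMSO and 203, 223 and 184 TPM at 48 h (log2 fold change 1.67, SE 0.053, adjusted p = 3.3e-14). STARD4, a sterol carrier, rose from 19.3 to 81 TPM and HMGCS1, an early enzyme of the pathway, from 23.1 to 48.4 TPM. ABCA1 and ABCG1, which export sterol and are controlled by LXR, also rose, from 5.81 to 12.9 TPM and 3.16 to 8.08 TPM.

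Targets of ATF4, the transcription factor of the amino acid and stress response, rose for 10 of 21 genes (beside 11.7% of all genes), with a median of 0.96 and none falling. PHGDH, the entry enzyme of serine synthesis, had 40.3, 43.6 and 42.6 TPM in DMSO and 211, 209 and 166 TPM at 48 h (log2 fold change 2.23, SE 0.047, adjusted p = 2.7e-16), and PSAT1, the next enzyme, had 56.9, 60.7 and 60.1 TPM in DMSO and 241, 253 and 175 TPM at 48 h (log2 fold change 1.96, SE 0.056, adjusted p = 9.7e-15). CTH, which makes cysteine, rose from 3.89 to 22.8 TPM, ASNS, which makes asparagine, from 51 to 139.6 TPM, and DDIT4, an inhibitor of mTORC1, from 7.98 to 89.7 TPM. CHAC1, which degrades glutathione, had 4.4, 4.05 and 4.4 TPM in DMSO and 15.2, 16.9 and 13 TPM at 48 h (log2 fold change 1.8, SE 0.10, adjusted p = 4.0e-11). SLC7A5 and SLC3A2, the subunits of a leucine transporter, went from 197 to 176 TPM and 162 to 141 TPM, with log2 fold changes of -0.12 and -0.22 (adjusted p = 0.081 and 0.016). MAT2A, which makes S-adenosylmethionine, fell, with 756, 745 and 748 TPM in DMSO and 275, 281 and 235 TPM at 48 h (log2 fold change -1.55, SE 0.042, adjusted p = 4.3e-15).

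The promoter of CHAC1 is shown because it holds the C/EBP-ATF motif TGATGCAA that ATF4 is known to use, as its reverse complement in capitals 209 bases before the start (chr15:40953221-40953520, plus strand).

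CHAC1: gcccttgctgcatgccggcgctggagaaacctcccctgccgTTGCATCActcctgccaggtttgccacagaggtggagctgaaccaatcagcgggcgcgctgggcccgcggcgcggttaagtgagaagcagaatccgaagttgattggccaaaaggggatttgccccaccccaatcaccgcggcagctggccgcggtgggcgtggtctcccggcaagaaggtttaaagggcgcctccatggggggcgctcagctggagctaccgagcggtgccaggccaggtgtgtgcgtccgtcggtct

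Genes of folate and one-carbon metabolism, which feed nucleotide synthesis, did not follow, with 1 of 17 rising and 1 falling. SHMT1, the cytosolic serine hydroxymethyltransferase, rose from 8.14 to 17.8 TPM and MAT2A was the member that fell. SHMT2, the mitochondrial form, went from 154 to 297 TPM (log2 fold change 0.88, adjusted p = 1.9e-12). Among 22 tested genes of glutathione, thioredoxin and peroxide defence 4 rose (beside 11.7% of all genes) and none fell, with a median of 0.33. PPARG, a nuclear receptor listed there, had 6.38, 6.74 and 6.33 TPM in DMSO and 14.9, 16 and 16 TPM at 48 h (log2 fold change 1.25, SE 0.068, adjusted p = 3.3e-11), SESN3, a stress-induced sestrin, rose from 4.45 to 11.1 TPM, and PRDX1, a peroxiredoxin, from 277 to 627 TPM. Catalase, CAT, went from 145 to 132 TPM (log2 fold change -0.034, adjusted p = 0.38).

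Glycolysis and hypoxia genes split. SLC2A3, a glucose transporter, had 7.14, 7.17 and 7.25 TPM in DMSO and 232, 237 and 169 TPM at 48 h (log2 fold change 5.02, SE 0.12, adjusted p = 6.9e-16), BNIP3 rose from 19.3 to 77.9 TPM and PFKFB4 from 2.46 to 17.1 TPM. ALDOC, an aldolase, had 182, 208 and 197 TPM in DMSO and 36.8, 43.7 and 42 TPM at 48 h (log2 fold change -2.25, SE 0.11, adjusted p = 6.2e-12) and GPI, glucose phosphate isomerase, fell from 782 to 334 TPM.

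Ribosome biogenesis genes, many of them targets of MYC, were lower. Of 22 genes, all tested, 8 fell (beside 4.67% of all genes) and none rose, 20 were lower at an adjusted p under 0.05 (beside 35% of all genes), and the median was -0.87. NOP2, a ribosomal RNA methyltransferase, had 152, 173 and 157 TPM in DMSO and 65.5, 65 and 57.6 TPM at 48 h (log2 fold change -1.22, SE 0.042, adjusted p = 1.0e-13). RRP12 fell from 77 to 30.8 TPM, UTP20 from 22.3 to 8.81 TPM and MYBBP1A from 111 to 49.4 TPM. MYC itself had 681, 689.8 and 692 TPM in DMSO and 359, 329.8 and 372 TPM at 48 h, just short of 2-fold (log2 fold change -0.98, SE 0.07, adjusted p = 1.3e-09), and past it without replicate 3 at 48 h (log2 fold change -1.07, adjusted p = 4.3e-11). Of 24 cytosolic ribosomal protein genes, 21 were lower at that limit but none by 2-fold, with a median of -0.28. Proteasome subunits showed the opposite, with 21 of 24 higher at that limit (beside 37.1% of all genes), none by 2-fold, and a median of 0.44; PSMB2 went from 81 to 161 TPM (log2 fold change 0.98, adjusted p = 3.9e-13), and past 2-fold without replicate 2 at 48 h (log2 fold change 1.01, adjusted p = 1.1e-12).

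**Figure D4:**
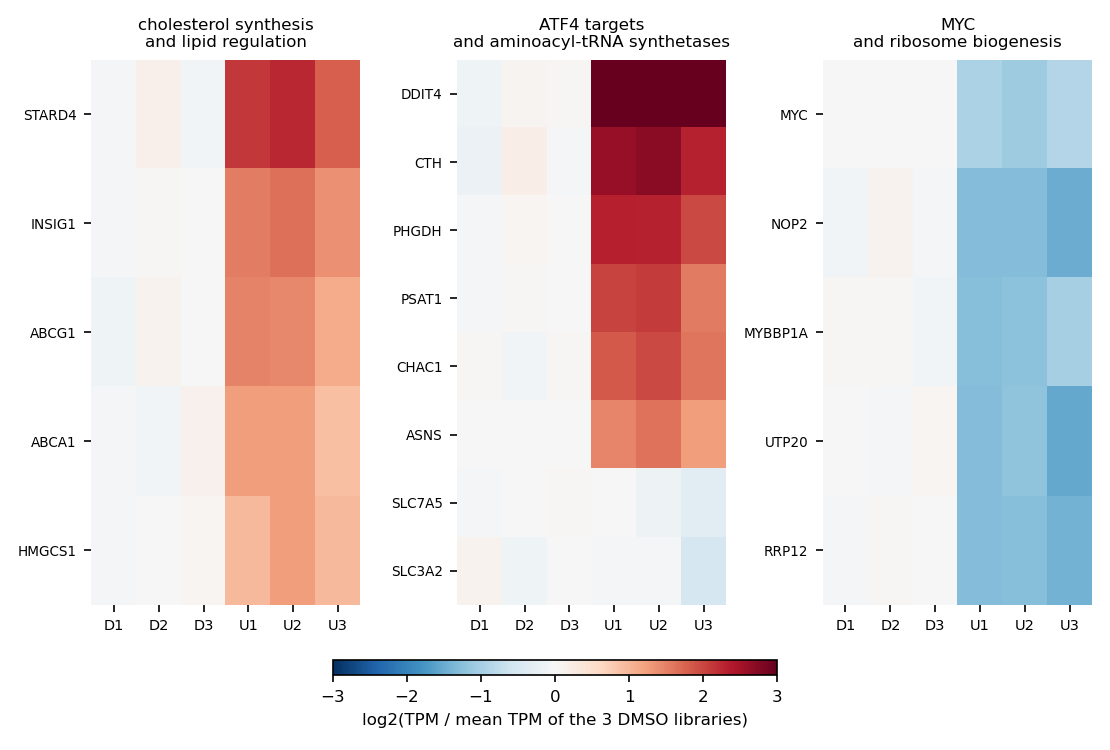
Log2 of TPM over the mean of the 3 DMSO libraries (color) for the genes of 3 lists that are named in the text (rows) in DMSO replicates 1 to 3 (D1 to D3) and UM171 48 h replicates 1 to 3 (U1 to U3); colors end at 3, which DDIT4 exceeds. The cholesterol genes shown, and the ATF4 genes other than SLC7A5 and SLC3A2, are red in each treated library, palest in U3 for most, and MYC and the ribosome biogenesis genes shown are blue.

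Genes of the cAMP pathway rose in part, with 5 of 18 tested rising and none falling. PDE4B, which degrades cAMP, had 0.65, 0.4 and 0.6 TPM in DMSO and 9.9, 8.9 and 7.58 TPM at 48 h (log2 fold change 4.58, SE 0.12, adjusted p = 3.8e-15). RGS1 and RGS2, which turn off G protein signals, rose from 0.54 to 10.6 TPM and 4.44 to 67.7 TPM.

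Among 27 genes of lysosomes and the V-ATPase 3 rose (beside 11.7% of all genes) and none fell, with a median of 0.14. These were CTSL, the protease cathepsin L, from 5.3 to 29.5 TPM, ATP6V0D2, a proton pump subunit of osteoclasts, from 0.257 to 3.3 TPM, and NPC1, which exports cholesterol from lysosomes, from 64.4 to 204 TPM. Nuclear-encoded subunits of the respiratory chain had a median of 0.13, and none of 23 passed both limits. Of 8 tested S100 genes, which encode calcium-binding proteins, 1 rose and 2 fell. S100P had 8.65, 8.29 and 7.59 TPM in DMSO and 1.49, 0.5 and 0.57 TPM at 48 h (log2 fold change -2.88, SE 0.21, adjusted p = 1.6e-09), and S100A4 went from 467 to 597 TPM (log2 fold change 0.37, adjusted p = 0.0089). Of 9 tested genes of erythroid cells and megakaryocytes 3 rose, among them EPOR, the erythropoietin receptor, from 2.04 to 7.74 TPM, and ITGA2B, the platelet integrin CD41, from 1.27 to 6.73 TPM, while GATA1 and KLF1 were too low to be tested. Histone genes had a median of -0.39 with 1 of 15 falling, but most histone RNAs have no poly(A) tail and are poorly captured by this library type.

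Few genes of cell division passed both limits, though many were slightly higher. None of 24 genes of G2 and mitosis passed both limits, and MKI67, which marks cycling cells, had 128, 129 and 133 TPM in DMSO and 119, 125 and 139 TPM at 48 h (adjusted p = 0.96), and without replicate 3 it was slightly lower than in DMSO (log2 fold change -0.15, adjusted p = 0.0026). Among 27 genes of DNA replication RRM2, a subunit of ribonucleotide reductase, rose from 127 to 271 TPM and POLA1, a DNA polymerase subunit, from 8.43 to 17.6 TPM, and the median was 0.18. At an adjusted p under 0.05 (edgeR), 17 of these 27 were higher and 4 lower, beside 37.1% and 35% of all genes. Of the 24 genes of G2 and mitosis, 12 were higher and 2 lower at that limit, with a median of 0.19. CDKN2D, an inhibitor of CDK4 and CDK6, had 11.4, 16 and 13.9 TPM in DMSO and 39.3, 41.6 and 27.5 TPM at 48 h (log2 fold change 1.34, SE 0.10, adjusted p = 3.1e-09), and CDKN1A, or p21, went from 218 to 281 TPM (log2 fold change 0.40, adjusted p = 3.4e-06). In the BCL2 family the inhibitor of apoptosis BCL2A1 rose from 3.59 to 19.3 TPM, while BCL2 fell from 50.2 to 25 TPM. The cell death genes BCL2L11, BBC3 and BMF fell from 17.1 to 8.02 TPM, 11.6 to 5.33 TPM and 35.2 to 9.88 TPM, and BBC3 was just short of 2-fold without replicate 3 at 48 h (log2 fold change -0.98, adjusted p = 2.0e-07).

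Mitochondrial mRNAs are a case where replicate 3 decided the sign. The 13 genes had a median log2 fold change of 0.22 with all libraries and -0.039 without replicate 3, and none passed both limits. Their summed level was 127094 to 152026 TPM in DMSO and 149093, 140242 and 222370.0 TPM in the treated libraries, so replicates 1 and 2 lay within the range of DMSO. SOD1, a nuclear-encoded superoxide dismutase that the study follows, had 122, 138 and 137 TPM in DMSO and 256, 276 and 266 TPM at 48 h, with replicate 3 between the others. It rose just past 2-fold (log2 fold change 1.03, adjusted p = 7.7e-11) and fell short of it without that replicate (log2 fold change 0.94, adjusted p = 3.2e-12) or without DMSO replicate 1 (log2 fold change 0.99, adjusted p = 1.7e-09).

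The 48 h libraries were also set against the neighbouring times, to find what was particular to them. Against UM171 24 h, 416 genes were higher at 48 h (2.51% of those tested) and 56 lower (0.338%), and against UM171 72 h, 126 were higher (0.76%) and 430 lower (2.59%). The differences in these contrasts are between UM171 groups, but the filter, the scaling and the spread were taken from all 15 libraries, DMSO included. With only the compared groups fitted, 276 genes were called against 24 h and 386 against 72 h. Above both neighbours lay 4 genes and below both 4 genes, and 3 and 2 of these had an average log2 CPM above 2. CA2, carbonic anhydrase 2, had 767, 744 and 518 TPM at 48 h, against means of 298 TPM at 24 h and 258 at 72 h (log2 difference 1.19 and 1.47, adjusted p = 4.6e-09 and 2.3e-10). IGHV1-3 was above both as well, with means of 232 and 206 TPM at 24 and 72 h. BPI reached its lowest level at 48 h, against 3.11 TPM at 24 h and 2.72 at 72 h (adjusted p = 1.3e-08 and 6.6e-08), and BMF did so too (20.6 and 23 TPM, adjusted p = 1.7e-08 and 2.3e-09).

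HSPA1A, an inducible HSP70 chaperone, had 121, 128 and 134 TPM in DMSO and 73, 74.3 and 71.8 TPM at 48 h, below DMSO (log2 fold change -0.80, SE 0.06, adjusted p = 2.0e-09) but above its means of 29.2 TPM at 24 h and 19.5 TPM at 72 h (adjusted p = 6.0e-11 and 4.5e-13). HSPA1B, its near-identical neighbour, fell against DMSO, from 162 to 57.9 TPM, and the 2 share reads. Among 20 heat shock and chaperone genes, 11 were called higher at 48 h than at 72 h, and the median difference was 1.03. Against DMSO 2 of them rose, HSP90B1 (374 to 767 TPM) and PDIA4 (47.3 to 110.1 TPM), both chaperones of the endoplasmic reticulum. HSPA8, the constitutive HSP70, had 3174, 3316 and 3288 TPM in DMSO and 2618, 2745 and 2931 TPM at 48 h and a mean of 988 TPM at 72 h (log2 difference of 48 h over 72 h 1.55, adjusted p = 2.2e-12). AHR, the receptor of aryl hydrocarbons, rose against DMSO, from 14.8 to 56.1 TPM, while its repressor AHRR fell from 37.8 to 15.2 TPM, and its target CYP1A1 had 7.5 TPM at 24 h and 0.813 TPM at 48 h (log2 difference -3.21, adjusted p = 1.1e-10).

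**Figure D5:**
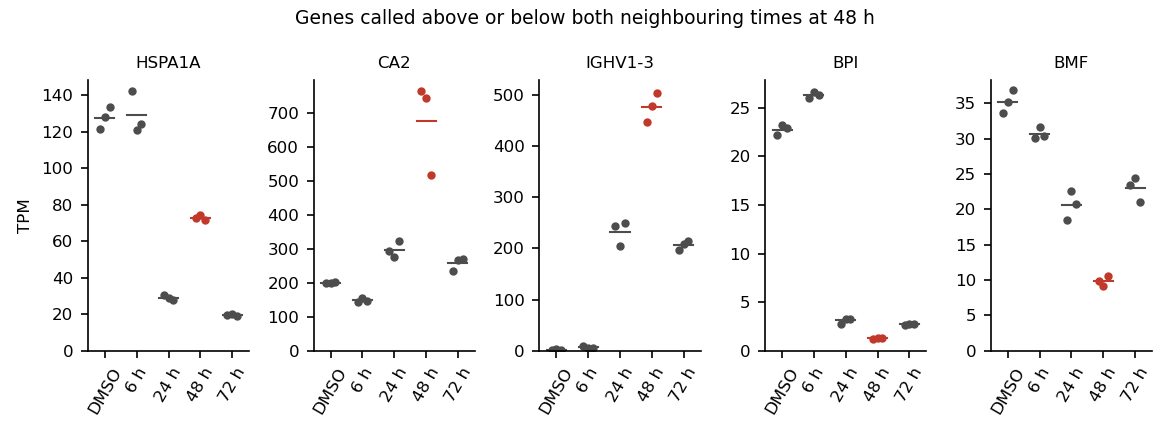
TPM of 5 genes in all 15 libraries of DMSO and UM171 6, 24, 48 and 72 h (x axis); points are libraries, bars are means of 3, and 48 h is red. CA2 and IGHV1-3 are highest at 48 h, BPI and BMF lowest, and HSPA1A at 48 h lies above 24 h and 72 h but below DMSO.

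The letters of 5 known motifs were counted in the windows of 250 bases before to 50 after the start of 11349 tested genes, 1 window per gene and on both strands. The AP-1 motif TGANTCA occurred in 4.8% of all windows, 7.94% of the 1436 windows of genes that rose and 4.78% of the 481 of genes that fell. The GATA motif AGATAA occurred in 5.44%, 8.5% and 3.12%, the NF-kB core GGANTTNCC in 4.24%, 5.29% and 4.37%, and the C/EBP-ATF motif TGATGCAA in 0.546%, 1.25% and 0.624%. The E-box CACGTG, which MYC is known to bind, occurred in 10% of all windows, 6.89% of those of genes that rose and 16.4% of those of genes that fell. These shares are descriptions: base composition was not matched, no test was made, and no binding was measured.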

How the data were processed

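RNA-seq was analysed for 15 libraries of OCI-AML5 (DMSO and UM171 at 6, 24, 48 and 72 h, 3 each). According to the labels the authors called reads with CASAVA 1.8.2, trimmed them with Trimmomatic 0.35, aligned them to GRCh38 with STAR 2.5.1b and estimated expression with RSEM 1.2.28; the strand setting of RSEM is not given in the sources used here. The deposited values used here were expected counts per gene, which RSEM divides among genes that share reads, and TPM per gene, which the authors' files scale by length. The 6 other libraries of the series, from a clone expressing a guide RNA against EPCR in DMSO or UM171, were not used here. Entries of the second pseudoautosomal copy were added to the first.

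Expected counts were rounded, filtered with filterByExpr (16575 genes), scaled by TMM and tested with edgeR 4.0.16 (quasi-likelihood, R 4.3.3) across the 15 libraries, without a replicate block, with Benjamini-Hochberg adjustment over all tested genes. A call needed an adjusted p under 0.0001 and over 2-fold. DESeq2 1.42.0 and limma 3.58.1 were alternatives, and limma was run on log2(TPM + 1) and log2(TPM + 0.1). On simulated counts for this comparison (16097 genes) 194 of 200 changed genes were recovered with 0 false calls. The number of false calls among the 2719 genes called here, with replicate 3 at 48 h standing apart, was not tested. Same-numbered DMSO and 48 h libraries did not deviate together (r from -0.033 to 0.064). With 3 libraries per group this check cannot exclude that the numbers pair them. Ratios for genes with at most 3 counts in each DMSO library carry exact 95% intervals, and genes at 0 in DMSO were set against 3 counts over the group; both cover counting error only. Promoter windows came from RefSeq (GRCh38.p14). Python 3.11.15 and matplotlib 3.10.9 made tables and figures.

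Genes were named as the largest rises and falls among called genes whose TPM did not overlap between groups and whose log2 CPM averaged over 2, the largest in TPM, those near 0 in DMSO, those beyond both neighbouring times, and members of 48 lists, of which the first members and the called ones came first. Further members of these lists, and the promoters, were chosen after their values were seen. The lists and the rule were chosen with earlier results of these data known. A few genes are not reported here.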

Additional observations from a re-analysis of the deposited data

How the results depend on the processing

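The count of genes called against DMSO, 2719, stayed within 1.5 times of itself under other scaling factors, DESeq2, other filters and a fit of the compared groups alone. It was 1638 with limma on log2(TPM + 1) and 11946 at an adjusted p under 0.05 with no minimum fold. Against UM171 24 h, 472 genes were called. This became 239 and 201 with limma on log2(TPM + 0.1) and log2(TPM + 1), 276 with the compared groups alone, 7569 at an adjusted p under 0.05 with no minimum fold and 983 at that limit with 2-fold. Against UM171 72 h, 556 genes were called, and the counts were 287 with limma on log2(TPM + 1), 9493 with no minimum fold and 1219 at an adjusted p under 0.05 with 2-fold. Leaving out each library in turn gave 2512 to 2630 genes against DMSO, 348 to 455 against 24 h and 446 to 538 against 72 h. Leaving the mitochondrial genes out of the fit, an alternative chosen after seeing the data, gave 2729, 473 and 542. With the replicate number as a block the counts were 2615, 430 and 501, although the libraries share only a number and the check of the pairing did not tie them.

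Of 185 named genes called against DMSO, 167 were called in every alternative that gave a value. Of 3917 values of named genes under alternatives 40 lost their call, 4 gained one and 16 changed sign, all of the last for MKI67, REST and RNASE2, whose main differences were near 0. MKI67 had log2 fold changes of -0.00014 with DESeq2, -0.0004 with RLE factors, -0.033 and -0.032 with limma on log2(TPM + 0.1) and log2(TPM + 1), -0.0062 without a filter, -3.4e-05 with the compared groups alone, -0.0098 with upper quartile factors and -0.15 to 0.085 when 1 library was left out, the lowest without 48 h replicate 3. REST had 0.014 with at least 10 counts in every library, 0.0419 and 0.0401 with limma, and -0.025 to 0.0123 when 1 library was left out, above 0 without DMSO replicate 3 (0.00905) or 48 h replicate 1. RNASE2 had -0.015 with limma on log2(TPM + 0.1) and on log2(TPM + 1) and -0.25 to 0.197 when 1 library was left out, the lowest without 48 h replicate 3. Medians changed sign for 8 of 48 lists under some alternative, none with a main median above 0.224 in size: MHC class II, neutrophil granule, stem and progenitor, S100, CDK inhibitor, mitochondrial, LSD1-CoREST and aryl hydrocarbon receptor genes. The cause was not tested. Genes with few DMSO counts limit the precision of the largest ratios, and reads shared between near-identical genes could not be assigned.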
